A study of Mus musculus with 4 samples.

Results

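The TRIM (tripartite motif) genes described here are the protein-coding rows of a mouse gene table whose symbol is Trim followed by a number and at most 1 letter. The rule found 68 of the 52636 genes in the table, and 30 of the 68 averaged 1 FPKM or more across the libraries. FPKM is the count of sequenced fragments scaled by gene length and library size, so levels of different genes can be compared. Of all genes, 10562 reached that average and were tested. TRIM genes named by another symbol, such as Pml, fall outside the rule.

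RNA was sequenced from Th17 cells, the helper T cells that make interleukin 17, of C57BL/6 mice. Cells labelled PP2A WT (WT) were compared with cells labelled PP2A cKO (cKO), with 2 libraries of each. The PP2A phosphatase removes phosphate from serine and threonine, and joins catalytic, scaffold and regulatory subunits. The labels name neither the subunit that was targeted nor a Cre driver, and give no age or sex. Cells of both genotypes went through the same steps. Naive cells were primed for 2 days beside irradiated autologous antigen presenting cells, 3 per naive cell. The priming medium had 2 µg/ml of anti-CD3, 2 µg/ml of anti-CD28, 2 ng/ml of TGFβ1 and 20 ng/ml of IL-6. It also had antibodies to IL-4 and to IFNγ at 10 µg/ml each. Restimulation followed, for 4 h, with PMA at 50 ng/ml and ionomycin at 500 ng/ml. The libraries are called biological replicates. Since nothing says that they came from separate mice, p-values measure only the spread between these libraries, which may be technical.

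TRIM proteins carry a RING finger, B-boxes and a coiled coil, and most act as E3 ubiquitin ligases, the enzymes that choose which proteins are tagged with ubiquitin. Many are induced by interferon, bind viral capsids or act on the sensors of foreign RNA and DNA, while others work in transcription, cell division, the cytoskeleton and muscle. In mice a group of related genes, Trim6, Trim34a, Trim5, Trim12a, Trim34b, Trim12c, Trim30b, Trim30c, Trim30a and Trim30d, lies side by side on chromosome 7. Type I interferon induces genes through interferon-stimulated response elements, short DNA stretches bound by STAT and IRF factors.

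Trim30a and Trim30d, neighbours in that group, were the TRIM genes that rose in cKO cells by the main test. Their sequence before the transcript start is therefore shown, from RefSeq on the build GRCm38.p6, read 5′ to 3′ in the direction of the gene. Capitals mark a match to the interferon-stimulated response element, written as GAAA, any 2 bases and GAAA again, on either strand. On the other strand it reads TTTC, any 2 bases and TTTC.

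Trim30a, chr7:104465194-104465443, minus strand: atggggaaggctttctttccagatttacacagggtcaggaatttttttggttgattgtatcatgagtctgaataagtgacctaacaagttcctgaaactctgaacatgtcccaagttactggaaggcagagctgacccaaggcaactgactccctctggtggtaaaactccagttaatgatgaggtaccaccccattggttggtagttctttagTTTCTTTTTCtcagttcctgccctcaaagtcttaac
Trim30d, chr7:104507850-104508099, minus strand: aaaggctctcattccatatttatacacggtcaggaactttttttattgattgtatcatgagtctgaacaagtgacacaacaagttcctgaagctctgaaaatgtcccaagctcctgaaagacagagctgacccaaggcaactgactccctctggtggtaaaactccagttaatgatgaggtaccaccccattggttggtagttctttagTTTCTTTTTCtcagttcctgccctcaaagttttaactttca

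Slid by 5 bases, the pair had the same base at 226 of 245 positions (92.2%). The match lay 36 to 27 bases before the start of Trim30a and 41 to 32 bases before that of Trim30d. The same element was found near the start of other tested TRIM genes, and of Trim5, which was below 1 FPKM. They are shown as 30 bases with the match in capitals, where overlapping matches run together.

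Trim34a, chr7:104244457-104244486, plus strand: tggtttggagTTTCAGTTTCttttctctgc
Trim12a, chr7:104315466-104315495, minus strand: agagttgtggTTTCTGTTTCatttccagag
Trim5, chr7:104288136-104288165, minus strand: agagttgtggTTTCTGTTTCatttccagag
Trim12c, chr7:104353359-104353388, minus strand: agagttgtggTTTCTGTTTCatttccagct
Trim21, chr7:102565450-102565479, minus strand: cctctgagagGAAACTGAAAGTGAAAtttg
Trim26, chr17:36836976-36837005, plus strand: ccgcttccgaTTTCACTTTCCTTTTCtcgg

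Trim12a and Trim5 were identical over these 30 bases, and Trim12c shared 28 of the 30 with each. The match began at base 11 of the Trim34a and Trim12a transcripts and at base 14 of the Trim21 transcript, and 29 bases before the start of Trim12c. In Trim26 it lay further upstream.

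Windows from 250 bases before to 50 after a start were given for 53 of the 68 TRIM genes, 67 windows in all. The element was in 10 of these 67 windows (14.9%), against 3.44% of the windows of all genes. By gene, it was found in 9 of 53 TRIM genes, against 3.99% of the 27025 genes with a window. Of the 23 tested TRIM genes with a window, the 7 holding it were Trim30a, Trim30d, Trim34a, Trim12a, Trim12c, Trim21 and Trim26. All 5 tested genes of the chromosome 7 group are among them, and of these Trim30d, Trim34a and Trim12a reached 1 FPKM only through cKO. The share among all tested genes was not computed. The remaining genes with a match, Trim5 and Trim2, were under 1 FPKM. The gamma-activated site, TTC, any 3 bases and GAA, was in 7 TRIM windows (10.4%) against 8.30% of all windows, and Trim46 was the only tested TRIM gene with it. A match says only that these letters are present. The related genes of the group have alike sequences here, so their matches are not separate observations.

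**Figure D1:**
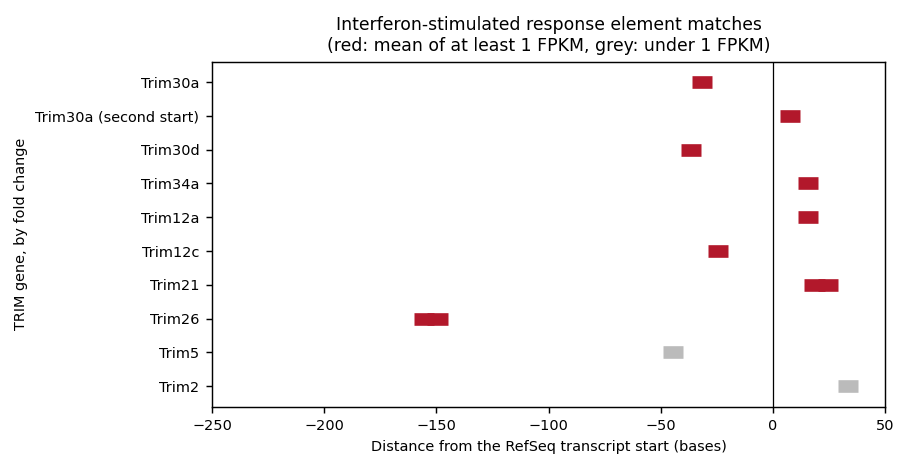
Positions of matches to the interferon-stimulated response element near TRIM gene starts. The horizontal axis is the distance in bases from the RefSeq transcript start, each bar is 1 match, and red and grey mark genes averaging 1 FPKM or more, or less. The bars of Trim26 lie furthest from the start, and those of the chromosome 7 group lie close to it.

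The libraries held 18517487 to 20387948 reads over all genes. The 6 T cell markers summed to 908.6 and 873.6 FPKM in WT and 1143 and 1252 in cKO, and the 5 Th17 markers to 4154 and 3813 in WT and 3040 and 2939 in cKO. The 5 B cell markers summed to 0.374 to 0.755 FPKM per library and the 5 dendritic cell markers to 0.445 to 0.654, with Siglech at 0. The summed macrophage and monocyte level was 1.89 and 2.25 FPKM in WT and 1.66 and 1.26 in cKO. Of the NK cell markers, Ncr1 and Klrb1c were at 0. Of the neutrophil markers, S100a8 and S100a9 were at 0, while Ly6g had 0.977 and 2.06 FPKM in WT and 2.09 and 1.86 in cKO. The CD8 T cell markers Cd8a and Cd8b1 summed to 7.61 and 8.24 FPKM in WT and 9.29 and 10.2 in cKO, nearly all from Cd8b1, with Cd8a under 1 FPKM. No marker of any of these lists was called, and the part of these levels in the TRIM results was not tested. The catalytic subunit gene Ppp2ca had 42.2 and 50.1 FPKM in WT and 41.8 and 34.5 in cKO, a change of -0.27 on the log2 scale (adjusted p = 0.36 by limma). None of the 4 catalytic and scaffold genes of PP2A was called, and reads outside a deleted exon would not show a deletion.

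The TRIM genes covered a wide range of levels. An average of 10 FPKM or more was seen for 10 of them and one of 1 to 10 FPKM for 20. Of the other 38, 8 lay between 0.1 and 1 FPKM, 16 lay above 0 but under 0.1 with at most 6 reads in a library, and 14 had no read. For those 14, a count of 0 allows up to 3 reads per library, which is 0.0209 to 0.109 FPKM depending on the gene, for counting error only. The share of TRIM genes tested, 44.1%, was close to the 41.9% of protein-coding genes. Summed over all 68, TRIM transcripts came to 423.4 and 412.0 FPKM in WT and 381.5 and 453.6 FPKM in cKO, so the genotypes overlapped in the total.

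Trim28 had the highest level. Its product, also called KAP1, is the corepressor of KRAB zinc finger proteins that silences endogenous retroviruses. Its FPKM was 145 and 145 in WT and 94.8 and 127 in cKO. Next was Trim8, a ligase of cytokine and NF-κB signalling, at 60.2 and 55.3 FPKM in WT and 47.7 and 77.3 in cKO. Trim27, which takes part in endosomal sorting, had 31.8 and 28.0 FPKM in WT and 21.1 and 28.0 in cKO. In Trim28 both cKO values lay below WT, and in Trim8 and Trim27 the genotypes overlapped. Trim44, an unusual member without a RING finger, had 25.6 and 25.5 FPKM in WT and 28.3 and 26.8 in cKO. Trim25, the ligase that ubiquitinates the RNA sensor RIG-I, had 19.2 and 19.5 FPKM in WT and 22.3 and 22.2 in cKO. Trim35 had 20.1 and 17.9 FPKM in WT and 19.4 and 20.8 in cKO. None of these 6 most abundant TRIM genes was called, with limma adjusted p-values from 0.259 for Trim28 to 0.877 for Trim8. The other 4 genes that averaged 10 FPKM or more were Trim16, Trim59, Trim11 and Trim41.

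**Figure D2:**
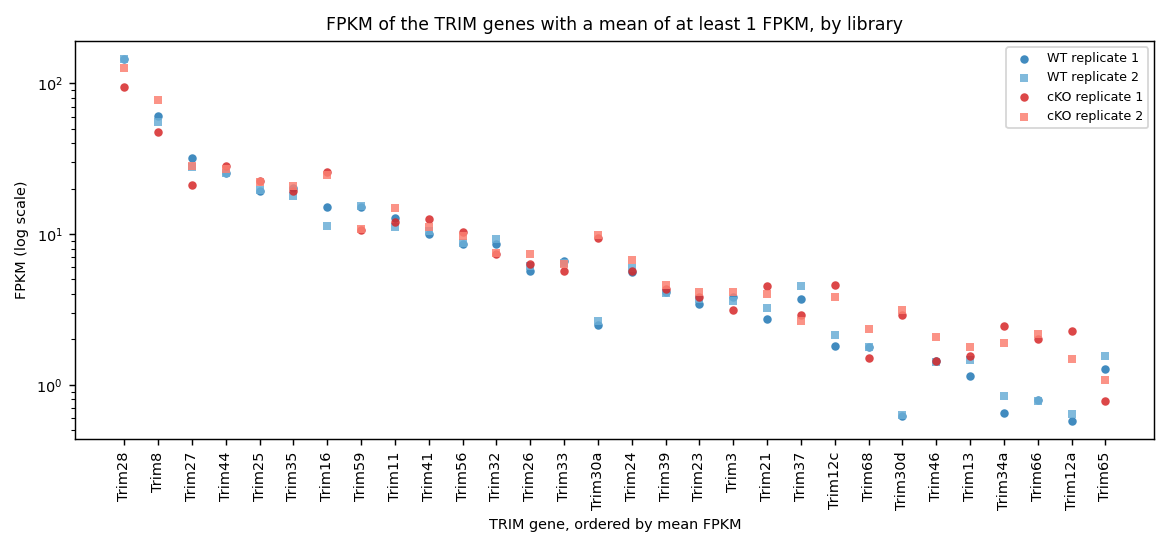
Level of the 30 tested TRIM genes in each library. The horizontal axis orders the genes by mean level, the vertical axis is FPKM on a log scale, and each point is 1 library, blue for WT and red for cKO. Trim28 is highest, and the points of Trim30a and Trim30d form separate WT and cKO pairs.

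The main comparison asked which TRIM genes differed between genotypes. With limma on log2(FPKM + 1) and adjustment over all 10562 tested genes, 2 of the 30 tested TRIM genes rose in cKO cells and 0 fell. Over all tested genes, 0.814% were called higher (86 genes) and 0.256% lower (27 genes) by this rule. At an unadjusted p under 0.05, limma gave 8 TRIM genes higher and 3 lower. Of all tested genes 9.56% were higher and 10.3% lower at that p, so the 3 lower TRIM genes match the background share. The related voom test on reads recovered from the FPKM values called 7 of the 30 higher and 1 lower. It called 2.52% of all tested genes higher (266 genes) and 3.33% lower (352 genes). Both cKO libraries lay above both WT libraries for 17 TRIM genes and below them for 6, and 7 overlapped. The same held above for 27.2% and below for 28.7% of all tested genes. The median log2 fold change of the 30 was 0.14, and that of all tested genes was 0.00. In these bulk samples, a changed share of cells that express a gene and a changed amount of RNA per cell cannot be told apart.

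Part of the 30 reached the mean of 1 FPKM through 1 genotype. Trim30d, Trim34a, Trim66 and Trim12a had a WT mean under 1 FPKM, and Trim65 a cKO mean under it. Their presence among the tested genes is thus tied to their difference, and counts over the 30 describe the tested genes only.

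**Figure D3:**
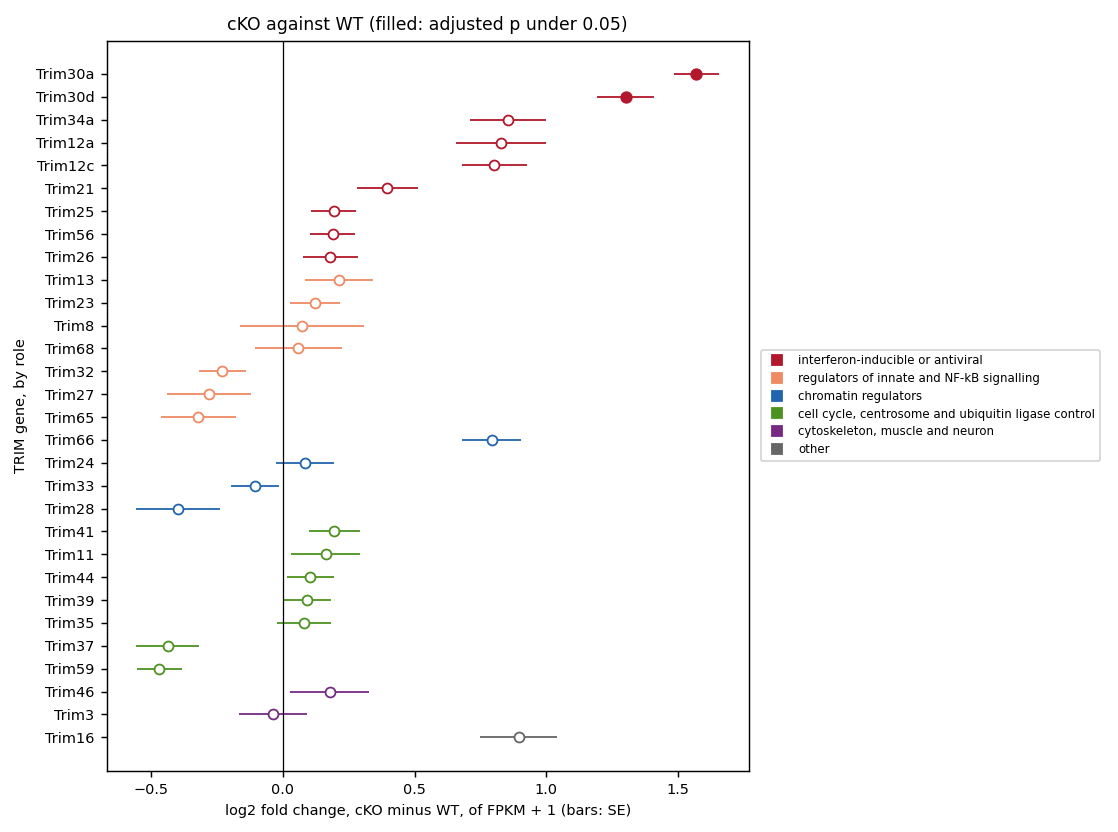
Differences between genotypes for the 30 tested TRIM genes, arranged by role. The horizontal axis is the log2 fold change of FPKM + 1, cKO minus WT, bars are the SE of the limma fit, and filled points passed the adjusted threshold. Trim30a at 1.57 and Trim30d at 1.30 are the filled points, and the point furthest to the left is Trim59 at -0.47.

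Among the 16 TRIM genes with an interferon-inducible or antiviral role, 9 were tested and 2 had no read. All 9 had both cKO libraries above both WT libraries, as did 27.2% of all tested genes. By limma 2 rose and by voom 5, against 0.814% and 2.52% of all tested genes. The log2 fold changes of the 9 ran from 0.18 to 1.57 with a median of 0.80. These counts and the median depend on the filter, since 3 of the 9 passed it only through cKO. The median was 0.25 without a filter and 0.19 with a filter of 5 FPKM. The 16 genes summed to 43.2 and 45.3 FPKM in WT and 66.5 and 64.7 FPKM in cKO. The role lists were written with earlier results of these data known.

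Trim30a encodes a mouse TRIM protein known as a restraint on Toll-like receptor signalling. It lies on chromosome 7 from 104409025 to 104465193 on the minus strand. Its FPKM was 2.51 and 2.65 in WT and 9.46 and 9.81 in cKO. The genotypes were far apart, and each pair of libraries was close together. The mean rose 3.73-fold, from 2.58 ± 0.0970 to 9.63 ± 0.248 FPKM (SD, n = 2). On the log2 scale the fold change was 1.57 ± 0.09 (SE; adjusted p = 0.0146 by limma). Leaving out 1 library at a time gave log2 fold changes of 1.543 to 1.598, in fits with a single library of 1 genotype.

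Trim30d lies beside it, from 104470014 to 104507849 on the same strand. Its FPKM was 0.626 and 0.627 in WT and 2.91 and 3.11 in cKO, from 46, 45, 222 and 227 reads. Again the cKO libraries stood together above the WT libraries. The mean was 4.81-fold higher in cKO, with a log2 fold change of 1.30 ± 0.11 (SE; adjusted p = 0.027 by limma). This scale understates the fold change of low genes, and voom gave 2.21. Leaving out 1 library at a time gave limma log2 fold changes of 1.265 to 1.339. Those fits hold a single library of 1 genotype and keep the filter on all libraries, which Trim30d passed only through cKO. Without a filter on low values the limma adjusted p was 0.148 for Trim30a and 0.161 for Trim30d, the setting that ended these calls. A pseudogene, Gm16464, overlaps Trim30d. Of the 30 tested TRIM genes, 19 overlap another annotated gene on either strand. Among them are Trim30a (Gm25405), Trim12c (Gm27995), Trim34a (AC123830.1) and Trim28 (Zbtb45). Without a known strand setting, reads of overlapping genes cannot be told apart.

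The other 3 tested genes of the group were Trim34a, Trim12a and Trim12c, and for them the call depended on the test. Trim12c and Trim12a are mouse relatives of TRIM5, the primate factor that binds retroviral capsids. Trim12c had 1.82 and 2.13 FPKM in WT and 4.58 and 3.81 in cKO, which is 0.80 ± 0.12 (SE) as a log2 fold change, with an adjusted p of 0.0591 by limma and 0.022 by voom. Trim12a had 0.575 and 0.643 FPKM in WT and 2.29 and 1.48 in cKO, with a log2 fold change of 0.83 ± 0.17 (SE). Its adjusted p was 0.0891 by limma and 0.0253 by voom. Trim34a had 0.651 and 0.848 FPKM in WT and 2.45 and 1.89 in cKO, from 33, 42, 129 and 95 reads. Its log2 fold change was 0.85 ± 0.15 (SE), with an adjusted p of 0.0683 by limma and 0.0267 by voom. In all 3 the cKO values exceeded both WT values, with cKO replicate 1 above cKO replicate 2. The transcript of Gm15133 overlaps Trim12a.

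The group spans 289.1 kb of chromosome 7, from 104218793 to 104507849. Summed over its 10 members, the level was 6.39 and 7.09 FPKM in WT and 22.3 and 20.4 FPKM in cKO. The 5 members under 1 FPKM were Trim5, Trim34b, Trim30c, Trim6 and Trim30b. Trim5 had 5 and 14 reads in WT and 31 and 15 in cKO, Trim34b 5, 0, 6 and 1, and Trim30c 0, 0, 1 and 1 in the same order. Trim6 and Trim30b had no read. No other gene within the span reached 1 FPKM. With 500 kb added on each side, 87 of 91 other genes were under 0.1 FPKM. The pair that was tested, the pseudogenes Dnajc19-ps and Gm5900, had log2 fold changes of 0.15 each (adjusted p = 0.56 and 0.669 by limma).

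**Figure D4:**
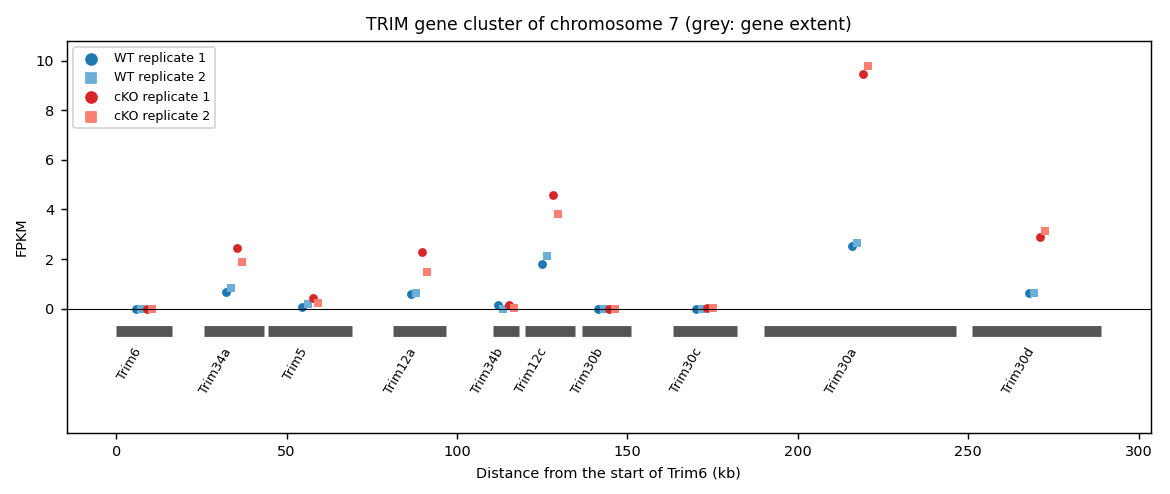
Levels of the 10 TRIM genes of the chromosome 7 group along the chromosome. The horizontal axis is the distance in kb from the start of Trim6, the vertical axis is FPKM, grey bars are the gene extents, and each point is 1 library, blue for WT and red for cKO. The cKO points of Trim34a, Trim12a, Trim12c, Trim30a and Trim30d lie above their WT points, and the other 5 genes stay under 1 FPKM.

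Members of the group resemble each other, and how the authors' counting treated reads that match several genes is not given in the sources used here. Of the 100-base stretches of the longest transcripts, 22.6% of those of Trim34a occur unchanged in Trim34b. For Trim12c the share also in Trim5 was 7.09%, and for Trim30d the share also in Trim30a was 5.53%. Trim12a shared none at that length. With 50-base stretches the shares were 41.28% for Trim34a in Trim34b, 24.25% for Trim12c in Trim5 and 6.99% for Trim30d in Trim30a. For Trim12a in Trim5 the share was 0.2445%. How the reads were split between Trim34a and Trim34b, and between Trim12c and Trim5, is uncertain.

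The interferon-inducible or antiviral genes outside the group had smaller fold changes than its 5 tested members, a contrast that was not tested. Trim21, a cytosolic antibody receptor with ligase activity, had 2.74 and 3.26 FPKM in WT and 4.52 and 4.00 in cKO (0.40 on the log2 scale, adjusted p = 0.158 by limma and 0.139 by voom). Trim25, Trim56 and Trim26 had log2 fold changes of 0.19, 0.19 and 0.18. Each of the 4 had both cKO libraries above WT, as did 27.2% of all tested genes, and none was called by limma or voom. The median of the 4 was 0.19 and that of the 5 tested genes of the group 0.85. Of those 5, Trim30d, Trim34a and Trim12a passed the filter only through cKO, and no gene of the 4 did, so the medians are not on an equal footing. Trim14, an adaptor of the mitochondrial antiviral protein MAVS, was below the filter with 0.471 and 0.519 FPKM in WT and 0.658 and 1.03 in cKO.

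Chromatin regulators of the family gave values of both signs, with a median log2 fold change of -0.01 over 4 tested genes. Trim66, a histone reader best known from testis, was called higher by voom and not by limma. It had 0.797 and 0.786 FPKM in WT and 2.03 and 2.18 in cKO. That is 2.66-fold in the means, with a log2 fold change of 0.79 ± 0.11 (SE) and an adjusted p of 0.0541 by limma and 0.00562 by voom. The libraries within each genotype were close, and the genotypes were well separated. Trim66 is on chromosome 7 at 109449006 to 109508134, outside the group. Trim28 had a log2 fold change of -0.40 ± 0.16 (SE; adjusted p = 0.259 by limma), and its cKO libraries differed from each other by more than the WT libraries did. Without cKO replicate 2 the value for Trim28 was -0.61 (adjusted p = 0.0116 by limma), in a fit whose spread comes from the WT pair alone and that called 15.3% of all tested genes lower. Trim33, a partner of SMAD4 in TGF-β signalling, had -0.11, and Trim24, a close relative, had 0.08.

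Trim16 was the only tested gene among the 13 with other roles. Its product lacks a RING finger and takes part in the clearance of damaged lysosomes. Its FPKM was 15.0 and 11.4 in WT and 25.9 and 24.6 in cKO, a 1.91-fold difference in means with no overlap. The log2 fold change was 0.90 ± 0.15 (SE), with an adjusted p of 0.0635 by limma and 0.0159 by voom. Its annotated span overlaps Fbxw10.

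Among 11 genes of cell cycle, centrosome and ubiquitin ligase control, 7 were tested, with a median log2 fold change of 0.09. Trim59, a membrane-anchored ligase linked to proliferation, had 15.0 and 15.4 FPKM in WT and 10.6 and 10.8 in cKO. The cKO mean was 0.704 of the WT mean (log2 fold change -0.47 ± 0.08, SE; adjusted p = 0.0723 by limma and 0.032 by voom), so it was called lower by voom and not by limma. Trim37, which restrains centrosome formation, had 3.73 and 4.54 FPKM in WT and 2.92 and 2.64 in cKO (-0.44 on the log2 scale, adjusted p = 0.139 by limma and 0.0611 by voom). In both genes the cKO values were below both WT values. The remaining 5, Trim41, Trim11, Trim44, Trim39 and Trim35, had log2 fold changes from 0.08 to 0.20. Trim41 overlaps the abundant gene Rack1.

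The 7 tested regulators of innate and NF-κB signalling had a median log2 fold change of 0.06, and none was called by limma or voom. Both cKO libraries were above WT for 2 of them, below for 2, and 3 overlapped. Of all tested genes, 27.2% were above and 28.7% below, so these counts are near the background shares. Trim65, a ligase of the RNA sensor MDA5, had 1.28 and 1.55 FPKM in WT and 0.786 and 1.08 in cKO (-0.32 on the log2 scale, adjusted p = 0.292 by limma). It overlaps Trim47, another member with a mean under 1 FPKM. Trim27 had -0.28, Trim32 -0.23, Trim68 0.06, Trim8 0.07, Trim23 0.12 and Trim13 0.21 on the same scale. Trim3 (-0.04) and Trim46 (0.18), tied to neurons and the cytoskeleton, were not called.

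Some of these values rest on the spread between the cKO libraries, which moved with GC content. Over the 30 tested TRIM genes, Spearman's rho of transcript GC with cKO replicate 1 minus replicate 2 was -0.54, and with WT replicate 1 minus replicate 2 it was 0.45. Over all tested genes with a known GC content (10550) the values were -0.53 and 0.12, so the WT trend was much weaker there. These are descriptions across genes that share the same 4 libraries. The SD of the difference was 0.232 between the cKO libraries and 0.129 between the WT libraries (log2). Trim8 and Trim28, at 59.8% and 59.6% GC, were higher in cKO replicate 2 than in replicate 1. Trim12a, at 39.1% GC, was higher in cKO replicate 1. Not every gene followed the trend, since Trim41, at 58.3% GC, was higher in cKO replicate 1 and Trim23, at 37.4% GC, was not. Trim30a and Trim30d, at 40.8% and 39.5% GC, were nearly level between the cKO libraries, and with a correction for GC their log2 fold changes were 1.48 and 1.21 (adjusted p = 0.0161 and 0.0234 by limma). Without cKO replicate 2, limma called 7 TRIM genes higher and 3 lower, the latter being Trim28, Trim27 and Trim59. That fit has a single cKO library, assumed to vary like the WT libraries, and it called 13.2% of all tested genes higher and 15.3% lower. The 3 of 30 lower TRIM genes are below that share.

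**Figure D5:**
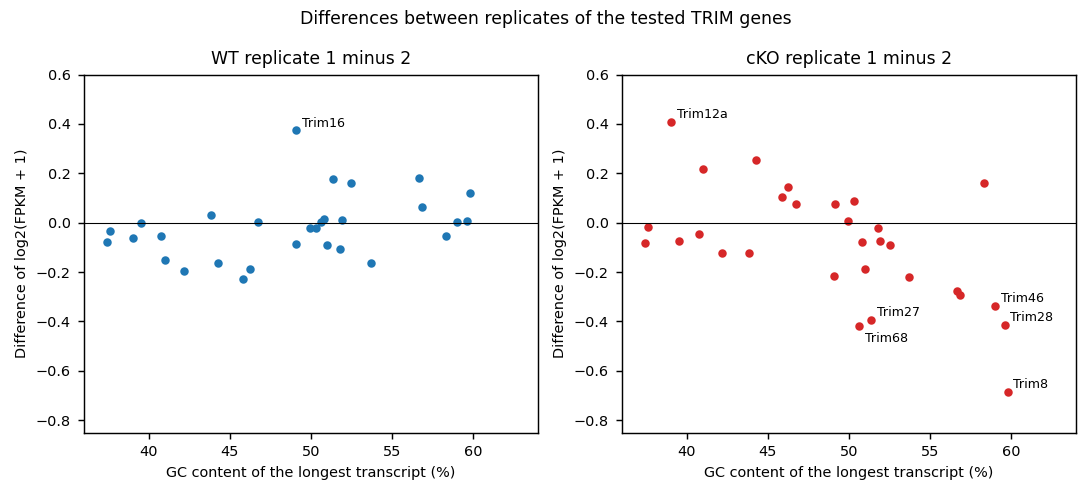
Difference between replicates of a genotype against transcript GC content for the 30 tested TRIM genes, WT on the left and cKO on the right. The vertical axis is the difference of log2(FPKM + 1), replicate 1 minus replicate 2, each point is 1 gene, and genes beyond 0.3 are named. In cKO, Trim8 at 59.8% GC lies lowest and Trim12a at 39.1% GC lies highest.

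Low levels limited the tests of the remaining genes. With voom and a filter of 10 reads in 2 libraries in place of 1 FPKM, 38 TRIM genes were tested, including 8 under 1 FPKM. It called 7 higher and 3 lower, where 2.76% and 3.38% of 12844 genes were called. The added genes were Trim2 and Trim62. Trim2, a ligase of neurons, had 219 and 199 reads in WT and 143 and 116 in cKO (-0.77 on the log2 scale, adjusted p = 0.0399 by voom). Trim62, a ligase of the adaptor CARD9, at 58.7% GC, had 0.632 and 0.918 FPKM in WT and 0.216 and 0.360 in cKO (-1.47 on the log2 scale, adjusted p = 0.0478 by voom). Trim45 had 0.358 and 0.375 FPKM in WT and 0.689 and 0.705 in cKO, and missed the threshold (adjusted p = 0.0633 by voom). Trim9, Trim14 and Trim5 were higher in both cKO libraries than in WT without a call, and Trim36 and Trim47 overlapped. Among genes averaging 1 FPKM or more, 27.2% had both cKO libraries above WT, and the share below that level was not computed. Muscle and germ-line members such as Trim63, Trim54, Trim55, Trim42 and Trim60 had no read.

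The pathway in which many TRIM ligases work was read from lists of sensing and interferon genes. Of 22 genes of RNA and DNA sensing, 17 were tested, 2 rose and 0 fell by limma, and voom called 3 higher and 1 lower. The median log2 fold change of the 17 was 0.09. Ifih1, which encodes MDA5, had 4.24 and 3.87 FPKM in WT and 18.0 and 15.5 in cKO (1.81 on the log2 scale, adjusted p = 0.0166 by limma). Irf7, the interferon regulatory factor, had 0.812 and 0.707 FPKM in WT and 2.63 and 3.02 in cKO (1.12, adjusted p = 0.0356 by limma). Irf7, and Usp18 below, had WT means under 1 FPKM, so they were tested only because of their level in cKO and the counts of these lists are tied to it. All 13 genes of interferon receptor signalling were tested. Of these, 2 rose and 0 fell by limma, 4 were called higher by voom, and the median was 0.31. The called genes were Stat2 (log2 fold change 0.69, adjusted p = 0.0491 by limma) and Usp18, an interferon-induced brake on the receptor (1.27, adjusted p = 0.0298 by limma). Pml, the only tested TRIM gene of another symbol, had 10.2 and 12.8 FPKM in WT and 12.3 and 16.8 in cKO, and was not called (adjusted p = 0.396 by limma).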

How the data were processed

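The libraries came from a NEBNext Ultra kit (NEB), per the labels' protocols. The submitters' processing notes list featureCounts 1.5.0-p3, GRCm38 and mm10. The aligner, the strand setting and the treatment of multiply matching reads were each not given in the sources used here. The deposited table gives the authors' FPKM per gene and the gene length.

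FPKM times gene length, divided by a constant fitted for each library, was a whole number of reads for 100% of values above 0, within 0.01 read. The main test was limma 3.58.1 (R 4.3.3) with a variance trend on log2(FPKM + 1), two-sided, without a block, on genes averaging 1 FPKM or more. P-values were adjusted by the Benjamini-Hochberg method over every tested gene, at 0.05. The recovered reads were tested with limma's voom, scaled by library totals. voom with a filter of 10 reads in 2 libraries was added after the data were seen. Other pseudocounts, filters and scalings, a GC correction, a replicate block and the omission of each library were also tried. Both tests were tested on simulated data.

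GENCODE M21 gave GC content, and 66 of the 68 TRIM genes had the same coordinates there. Every tested TRIM gene is named. Values per library are given for those past the threshold, the 6 most abundant, those with an absolute log2 fold change of 0.5 or more, and tested members of the chromosome 7 group. Further genes given with values per library were chosen after these were seen. The members and gene lists were chosen with earlier results of these data known.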

Additional observations from a re-analysis of the deposited data

How the results depend on the processing

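Counting the settings without 1 library, which keep a single library of 1 genotype, Trim30a was called under 14 of 15 settings. Trim30d, which reached 1 FPKM only through cKO, was called under 13 of 14. The exception was limma without a filter on low values, with adjusted p-values of 0.148 and 0.161. That fit covered 21807 genes and called 0 higher and 0 lower, TRIM genes included, with 1543 and 1469 genes, and 11 and 5 TRIM genes, at an unadjusted p under 0.05. Over all genes, the 86 called higher became 52 with TPM, 259 with protein-coding genes only, 248 with the GC correction, 266 with voom and 354 with voom and a filter on reads. The 27 called lower became 15 with a pseudocount of 0.1 and 241, 254, 352 and 434 under the last 4 of these. Leaving out 1 library gave 49 to 1390 higher and 6 to 1614 lower, the highest counts without cKO replicate 2. The TRIM genes called higher (2) were 1 with a filter of 5 FPKM, under which Trim30a was still called and Trim30d was not tested. They were 6 with the GC correction, and 7 with protein-coding genes only or with voom under either filter. Those called lower (0) were 1 with protein-coding genes only, the GC correction or voom, and 3 with voom and a filter on reads. Leaving out 1 library gave 2 to 7 TRIM genes higher and 0 to 3 lower. The TRIM median of 0.14 was 0.040 without a filter. The interferon-inducible or antiviral median of 0.80 was 1.05 with a pseudocount of 0.1 and with voom, 0.25 without a filter and 0.19 with a filter of 5 FPKM. TPM moved the median of all genes from 0.00 to -0.09. With TPM, Trim8 was -0.020, Trim35 -0.0093 and Trim68 -0.0084, and with the GC correction Trim3 was 0.035. Leaving out 1 library gave -0.27 to 0.42 for Trim8, -0.024 to 0.19 for Trim24, -0.15 to 0.27 for Trim68, -0.18 to 0.11 for Trim3 and -0.00088 to 0.16 for Trim35, the lowest without cKO replicate 2, and for Trim35 without WT replicate 2. Where no cause is named, the cause was not tested. Whether the replicate numbers pair the samples is not stated in the labels. The differences between replicates of WT and of cKO correlated at -0.093 over 10562 genes. That value cannot decide the pairing, since the difference between the cKO libraries also moved with GC content. With the replicate block, 154 genes were called higher and 73 lower, with 3 TRIM genes higher, Trim16 being added, and 0 lower. Planned count models on the recovered reads were not run, and voom stood in for them.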
